A study of Mus musculus with 21 samples.

Results

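Glycolysis splits glucose into pyruvate, and the pentose phosphate pathway branches off after the first phosphorylation step. A list of 34 genes of these routes was read from bulk RNA sequencing of mouse macrophages: glucose carriers, the glycolytic enzymes and their regulators, lactate dehydrogenases and lactate carriers, pyruvate dehydrogenase kinase 1, and the enzymes of both arms of the pentose phosphate pathway. The members are found in the table by symbol. Of the 34 symbols, 33 were in the table of 34573 genes. Pkm2 was not listed there as a gene of its own, and Pkm covers both splice forms. A filter on low counts left 27 members to test. Pfkm, Bpgm, Eno2, Ldhb, Slc16a1 and Rpia did not pass it, and their highest counts in any library were 14, 14, 7, 3, 25 and 8, in that order.

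The cells were bone-marrow-derived macrophages of C57bl/6 mice aged 12 weeks, grown for 6 days in L929 medium, which supplies the growth factor M-CSF. Cultures received succinate, an intermediate of the tricarboxylic acid cycle, or dimethyl malonate (DMM), an ester that yields the succinate dehydrogenase inhibitor malonate, for 3 h, and were then stimulated for 4 or 48 h, or left unstimulated, with lipopolysaccharide (LPS) from the outer membrane of bacteria, which macrophages sense through TLR4. The 21 libraries were 2 of DMM then LPS 4 h, 1 of succinate then LPS 4 h, 2 of LPS 4 h, 2 of DMM then LPS 48 h, 1 of succinate then LPS 48 h, 2 of LPS 48 h, 4 of DMM, 4 of succinate and 3 of untreated control. The unstimulated libraries came from the 4 h and the 48 h set and were pooled over both. The sources used here give no doses.

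Resting macrophages draw much of their energy from mitochondrial respiration. After LPS they are known to turn to glycolysis, with glucose entering through GLUT1 and lactate leaving through MCT4. The transcription factor HIF-1 is known to switch on many genes of this route, and succinate is known to stabilise its alpha subunit by inhibiting prolyl hydroxylases. The oxidative arm of the pentose phosphate pathway yields NADPH, used by NADPH oxidase and by glutathione reductase. Its non-oxidative arm exchanges sugar carbons with glycolysis.

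Total counts were 662186 to 1546867 per library. All 8 listed macrophage genes in the table were detected, and their summed level was 78480 to 173800 CPM (read counts relative to the scaled size of each library) in the LPS-treated libraries and 53970 to 91050 CPM in the unstimulated ones. Lyz2 was the largest part, at 66270 to 134700 CPM with LPS and 43340 to 77650 CPM without it. Emr1, Itgam and Fcgr1 had higher ranges with LPS. Cd68 leaned the other way, at 260 to 1183 CPM with LPS and 1165 to 2027 CPM without it, and the ranges of Csf1r, Mertk and Cd14 overlapped. Among 7 genes of neutrophils and their precursors, S100a8 had 7.72 to 560 CPM with LPS and 0 CPM without it, whereas the defining genes Ly6g and Ltf had 0 counts in every library. The summed level of those 7 genes was 7.72 to 565 CPM with LPS and 0.0 to 1.58 CPM without it. Genes of T and B cells summed to at most 1.58 CPM, and 3 erythroid genes had 0 counts. In bulk RNA a lower level from fewer cells of a type cannot be told apart from less RNA per cell. The library labelled LPS 48 h replicate 1 stood apart: Saa3, an acute phase gene that LPS induces, had 33.8 CPM there, against 52970 to 124700 CPM in the other LPS-treated libraries and 23.9 to 109 CPM in the unstimulated ones. That library was kept out of the groups, which leaves 1 library for LPS 48 h, and 22 of the 27 members lay within the unstimulated range in it.

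HIF-1 binds a short core, and 250 bases before the transcription start were searched for ACGTG and GCGTG on both strands (read as CACGT and CACGC on the other strand; CACGTG is also the E-box of other factors). A gene can have several windows and was counted when any of them matched. The window held a match in 28 of 33 members (84.8%), in 64.2% of the tested genes with a window and in 41.5% of all 27025 genes with one. By window, 36 of 47 of the members' windows matched (76.6%), against 38.6% of all 32851 windows. The share among windows of tested genes was not computed. Members had more windows per gene, 47 for 33 genes against 32851 for 27025, which makes a match in any of them likelier. The 5 members without a match were Bpgm, Eno2, Gpi1, Rpe and Tpi1. The sequences below, from RefSeq on GRCm38.p6, run 5′ to 3′ on the gene's strand and capitals mark the matches. They are those of the lactate carrier gene Slc16a3 (chr11:120948817-120949066, plus strand), the glucose carrier gene Slc2a1 (chr4:119108495-119108744, plus strand) and Ldha (chr7:46845554-46845803, plus strand, the first of its windows), which were among the members furthest above control after LPS. Tpi1 (chr6:124814159-124814408, minus strand) was also far above control and held no match, and G6pdx (chrX:74428881-74429130, minus strand) and Tkt (chr14:30548881-30549130, plus strand) are the pentose phosphate genes that were lower after DMM and LPS.
Slc16a3: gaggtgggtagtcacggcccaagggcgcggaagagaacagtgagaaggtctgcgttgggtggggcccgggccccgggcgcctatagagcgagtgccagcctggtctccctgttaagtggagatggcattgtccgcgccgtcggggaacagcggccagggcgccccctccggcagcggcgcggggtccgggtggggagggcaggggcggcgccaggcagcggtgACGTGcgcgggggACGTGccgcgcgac
Slc2a1: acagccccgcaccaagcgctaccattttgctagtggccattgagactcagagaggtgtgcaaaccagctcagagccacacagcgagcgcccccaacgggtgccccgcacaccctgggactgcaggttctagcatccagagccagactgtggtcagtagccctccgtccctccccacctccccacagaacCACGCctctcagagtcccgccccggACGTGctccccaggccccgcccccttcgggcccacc
Ldha: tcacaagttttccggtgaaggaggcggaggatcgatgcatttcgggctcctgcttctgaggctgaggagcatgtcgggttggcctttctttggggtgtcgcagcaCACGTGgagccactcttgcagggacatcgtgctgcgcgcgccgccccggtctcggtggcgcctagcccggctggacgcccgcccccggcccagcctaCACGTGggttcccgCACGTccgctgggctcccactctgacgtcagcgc
Tpi1: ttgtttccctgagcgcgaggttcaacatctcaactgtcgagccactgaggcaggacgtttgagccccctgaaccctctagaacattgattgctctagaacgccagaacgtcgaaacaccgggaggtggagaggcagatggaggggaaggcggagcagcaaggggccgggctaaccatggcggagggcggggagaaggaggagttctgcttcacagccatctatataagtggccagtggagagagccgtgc
G6pdx: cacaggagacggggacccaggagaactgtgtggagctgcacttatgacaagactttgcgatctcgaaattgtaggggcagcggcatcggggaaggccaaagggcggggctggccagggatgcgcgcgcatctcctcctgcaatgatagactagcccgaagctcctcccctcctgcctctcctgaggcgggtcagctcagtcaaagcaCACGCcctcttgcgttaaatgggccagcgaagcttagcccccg
Tkt: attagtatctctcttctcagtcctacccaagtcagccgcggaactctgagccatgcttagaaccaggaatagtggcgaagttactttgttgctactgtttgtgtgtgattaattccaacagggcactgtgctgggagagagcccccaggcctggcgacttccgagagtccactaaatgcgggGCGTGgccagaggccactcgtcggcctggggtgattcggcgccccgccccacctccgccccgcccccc
Slc16a3, Slc2a1, G6pdx and Tkt had 2, 2, 1 and 1 matches, and the Ldha window had 5, with the E-box palindrome counted on each strand. A match in a window says only that the letters are there.

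Set per length of exon, the same few enzymes led at rest and after LPS. Pkm, the pyruvate kinase gene, was first in both, with a level of 3751 CPM per kb in LPS 4 h libraries and 1396 CPM per kb in control libraries. Ldha, Aldoa and Tpi1 were next after LPS, at 2834, 2140.0 and 1219 CPM per kb. In control libraries Aldoa, Ldha and Gapdh stood next to Pkm, at 674, 275 and 181 CPM per kb, and 3 pentose phosphate genes, Taldo1, Tkt and Pgd, ranked between 5 and 8. Per length the lowest of the 33 in control libraries were Eno2, Slc16a1 and Hk2, at 0.227, 0.473 and 0.527 CPM per kb.

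The glycolysis and lactate genes together made up 3.51 and 3.80% of all counts in the LPS 4 h libraries and 3.46% in the LPS 48 h library, against 1.15, 1.31 and 1.51% in the control libraries. After DMM and LPS the share was 2.99 and 3.30% at 4 h and 2.42 and 2.81% at 48 h, below every library of LPS alone at that time. After succinate and LPS it was 4.30% at 4 h (95% Wilson interval 4.26 to 4.34%, counting error only) and 3.71% at 48 h (3.68 to 3.74%), above LPS alone. The 7 pentose phosphate genes made up a far smaller share. It was 0.0878 and 0.0973% after DMM and LPS 4 h, 0.234% after succinate and LPS 4 h (interval 0.225 to 0.243%), 0.143 and 0.165% after LPS 4 h, and 0.155 to 0.184% in control libraries. At 48 h it was 0.0933 and 0.102% after DMM and LPS, 0.243% after succinate and LPS (interval 0.234 to 0.252%) and 0.139% after LPS alone. These shares use no scaling between libraries.

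**Figure D1:**
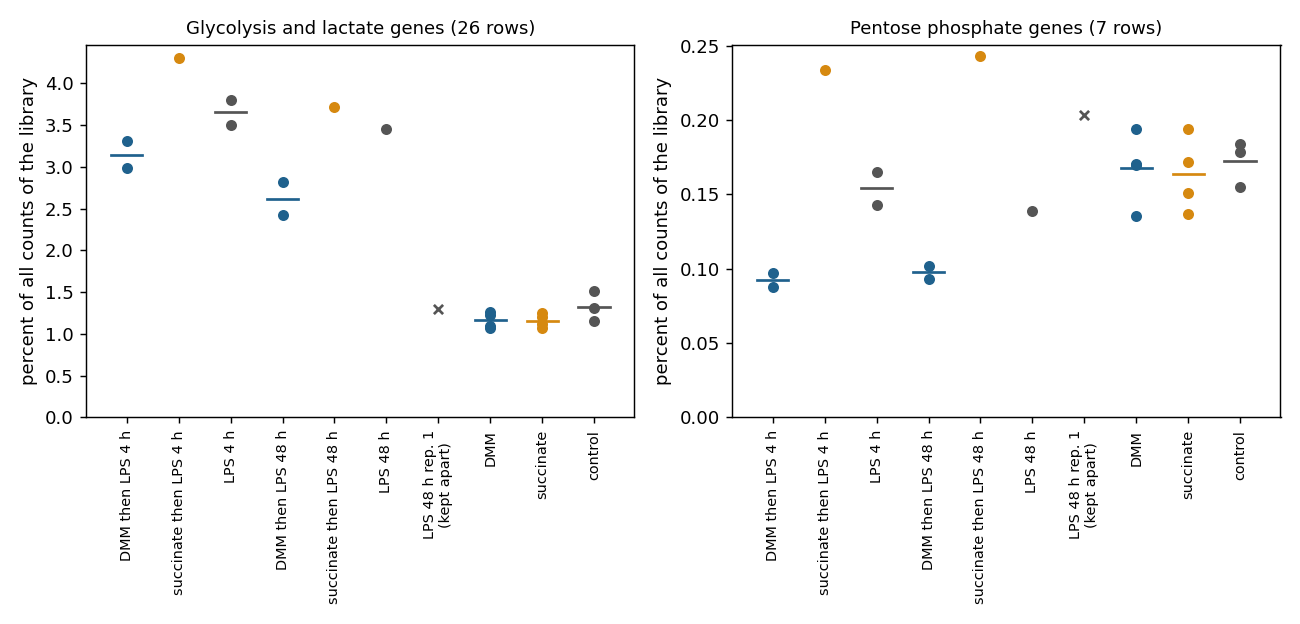
Percent of each library's counts in the glycolysis and lactate genes (left) and the pentose phosphate genes (right), by group; each point is a library, horizontal lines are group means, and the cross is the library labelled LPS 48 h replicate 1. LPS-treated libraries hold 2.42 to 4.30% of counts in the left set against 1.07 to 1.51% in unstimulated ones, and in the right set the DMM then LPS libraries lie at 0.0878 to 0.102%, below every other library.

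LPS for 4 h was set against untreated control to ask which steps of the route respond to the stimulus. Of the 27 members tested, 22 were higher and 1, Aldoc, was lower at an adjusted p under 0.05 (edgeR's quasi-likelihood test), against 15.4% of all 6812 genes higher and 12.5% lower. The median log2 fold change was 1.67 over the members and -0.07 over all genes. In glycolysis and lactate handling 19 of 21 genes rose, with a median of 2.31. In the pentose phosphate pathway 3 of 6 rose, with a median of 0.42. Scaled by library totals alone, which moved the median of all genes to -0.64, 17 members were higher and 4 lower, with Tkt, Taldo1 and Pfkfb4 joining Aldoc. Of all 6812 genes, 578 were higher and 1726 lower under that scaling.

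The genes of both glucose carriers rose. Slc2a1, which encodes GLUT1, had 145 and 137 CPM in the LPS 4 h libraries, against 2.02, 5.87 and 7.14 CPM in the control libraries. The groups were far apart, at a log2 fold change of 4.79 ± 0.32 (SE; adjusted p = 2.21e-13). Slc2a6, which encodes the related carrier GLUT6, had 254 and 200.1 CPM in LPS 4 h libraries, against 81.7, 142 and 148 CPM in control libraries, a smaller difference (0.88 ± 0.28, adjusted p = 0.0155). Per length, Slc2a1 made up 34.4 to 38.5% of the summed level of both carriers after LPS 4 h and 2.21 to 4.41% in control libraries. The 3 hexokinase genes, whose products trap glucose by phosphorylation, all rose. Hk2, the inducible form, had 36.3 and 33.4 CPM in the LPS 4 h libraries, against 2.04, 2.35 and 5.04 CPM in the control libraries (3.40 ± 0.47, adjusted p = 6.64e-07). Hk2 rose most but remained the least abundant of the 3 per length, at 4.62 to 4.67% of their sum after LPS 4 h, while Hk3, the form of myeloid cells, held 71.0 to 71.8%.

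The committing step showed a change of gene as well as of level. Pfkl, the liver-type phosphofructokinase gene, had 357 and 327 CPM in the LPS 4 h libraries, against 12.1, 13.3 and 21.1 CPM in the control libraries (4.47 ± 0.32, adjusted p = 1.26e-12). Pfkp, the platelet type, rose less, by 1.55 ± 0.28 (adjusted p = 5.24e-05). Pfkl therefore made up 82.9 to 83.2% of the 3 phosphofructokinase genes per length after LPS 4 h, against 26.3 to 37.2% in control libraries, where Pfkp held 42.2 to 49.4%. Pfkfb3 makes fructose 2,6-bisphosphate, the activator of phosphofructokinase. It had 410 and 422 CPM in the LPS 4 h libraries, against 13.1, 15.3 and 17.6 CPM in the control libraries (4.75 ± 0.33, adjusted p = 6.45e-13). Pfkfb4, a related gene, had 11.7 and 7.53 CPM after LPS 4 h and 12.9, 16.3 and 20.2 CPM in control libraries and did not pass the test (adjusted p = 0.151). Gpi1, the isomerase gene before this step, rose by 2.75 ± 0.34.

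From aldolase to enolase 6 of 7 tested genes rose. Tpi1, which interconverts the triose phosphates, had 3356 and 3354 CPM in the LPS 4 h libraries, against 197, 208 and 236 CPM in the control libraries (3.97 ± 0.41, adjusted p = 2.67e-09). Pgk1, Eno1, Gapdh, Pgam1 and Aldoa rose by log2 fold changes of 3.19, 3.18, 2.31, 2.12 and 1.67, in that order, and their groups did not overlap. Aldoc, the aldolase gene best known from brain, moved the other way, with 32.0 and 19.4 CPM in the LPS 4 h libraries, against 42.4, 86.8 and 102 CPM in the control libraries (-1.58 ± 0.38, adjusted p = 0.00202). Without LPS 4 h replicate B the call was lost (-1.27). Aldoa outweighed it in every group, at 99.5 to 99.7% of both per length after LPS 4 h and 96.0 to 97.8% in control libraries. Counts of Aldoart1, a near-identical copy of Aldoa, reached 51 in a library, and reads of the pair may have been split between them. Over all libraries Aldoart1 had 488 counts and Aldoa 67286. The same holds for Pgam1 and its copy Pgam1-ps2, which had 2776 and 161 counts, in that order.

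The exit of the route held the largest change. Ldha, which turns pyruvate into lactate, had 9170.2 and 9590.0 CPM in the LPS 4 h libraries, against 710.2, 974 and 1051 CPM in the control libraries (3.36 ± 0.36, adjusted p = 6.8e-09). Slc16a3, which encodes the lactate exporter MCT4, had 1223 and 1164 CPM in the LPS 4 h libraries, against 9.08, 14.1 and 16.3 CPM in the control libraries. It rose 90.1-fold, a log2 fold change of 6.49 ± 0.42 (adjusted p = 1.5e-13). The other lactate carrier, Slc16a1, had 1.07 and 3.23 CPM after LPS 4 h and 0.0, 1.17 and 5.10 CPM in control libraries and was too low to test. Pkm rose by 1.43 ± 0.35, and Pdk1, whose product holds pyruvate back from the mitochondrial dehydrogenase, rose by 2.02 ± 0.29 to 69.3 and 60.2 CPM, against 14.3, 16.4 and 17.2 CPM in control libraries.

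The pentose phosphate genes moved less. Pgd, the second dehydrogenase of the oxidative arm, had 1006 and 957 CPM in the LPS 4 h libraries, against 454, 511 and 522 CPM in the control libraries (0.99 ± 0.33, adjusted p = 0.0226). G6pdx, the first and rate-limiting dehydrogenase, had 295 and 269 CPM in LPS 4 h libraries and 143, 153 and 159 CPM in control libraries (0.89 ± 0.28, adjusted p = 0.0136). Rpe, an epimerase of the non-oxidative arm, had 25.6 and 42.0 CPM in LPS 4 h libraries and 9.18, 16.4 and 19.2 CPM in control libraries (1.17 ± 0.38, adjusted p = 0.0175). In these 3 genes the groups did not overlap but lay close together. Without LPS 4 h replicate B all 3 lost their call (19 members called in place of 23), without replicate A Pgd, G6pdx and Slc2a6 lost theirs, and without control replicate 1, 3 or 4 Rpe, Pgd or Slc2a6 did, in that order. Pgls, Tkt and Taldo1 had log2 fold changes of -0.05, -0.21 and -0.30, and their groups overlapped. G6pdx overlaps Ikbkg on the opposite strand over 13.6% of its exon length, and Rpe overlaps Kansl1l over 17.9%. The sources used here do not say whether counting used strand. Ikbkg had at most 81 and Kansl1l at most 8 counts in a library.

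**Figure D2:**
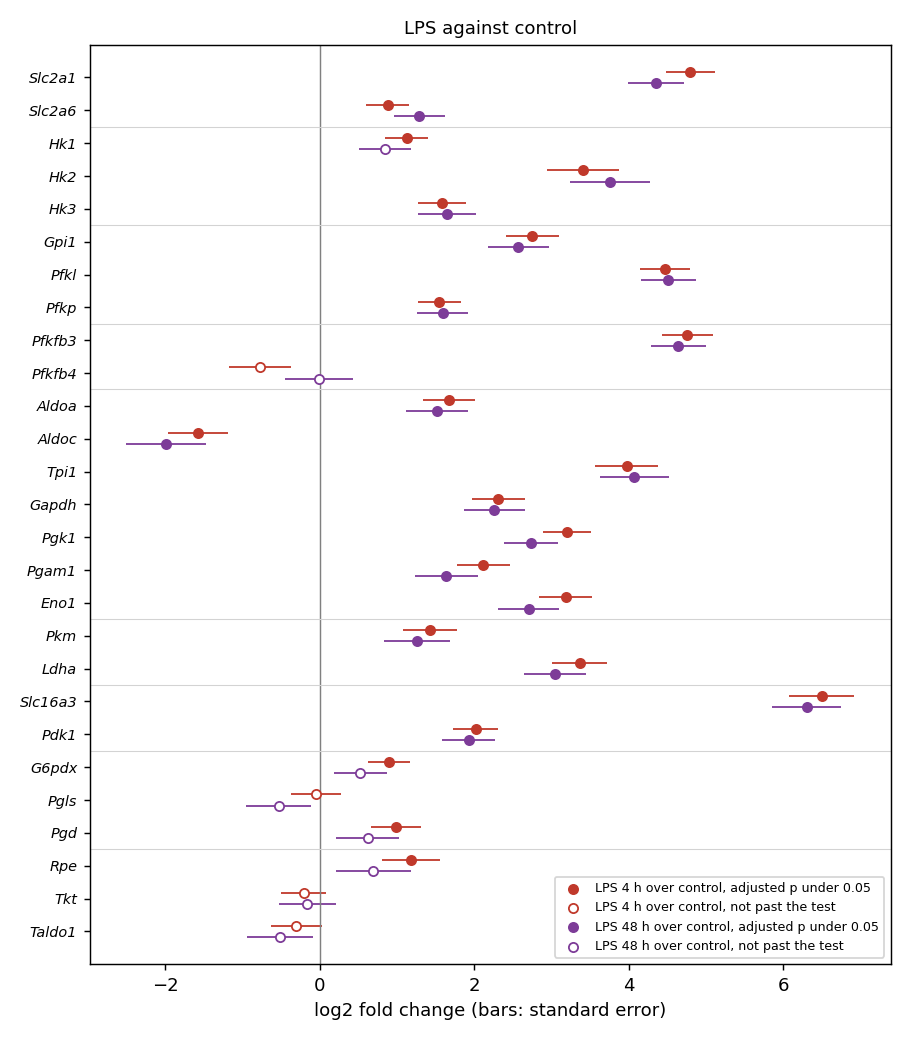
Log2 fold change of the 27 tested members (rows, in pathway order) in LPS 4 h (red) and LPS 48 h (purple) over control; bars are standard errors and filled points passed the test. Slc16a3 is furthest right at 6.49 and 6.30, Aldoc lies left of 0 at both times, and the 6 pentose phosphate genes in the bottom rows stay within 1.2 of 0.

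After 48 h of LPS the pattern was of the same size, from 1 library. Of the 27 members 18 were higher and Aldoc was lower than in control, against 12.5% of all genes higher and 8.29% lower. The median was 1.64 over the members and -0.09 over all genes. Slc16a3 had 1045 CPM, Tpi1 3591 CPM, Pfkfb3 384 CPM, Pfkl 352 CPM and Slc2a1 103 CPM, each above all 3 control libraries. None of the 6 pentose phosphate genes passed the test, and G6pdx, at 218 CPM, had a log2 fold change of 0.52 ± 0.34 (adjusted p = 0.313). The call of Hk1 at 4 h was also not met at 48 h (0.84 ± 0.34, adjusted p = 0.0800). The times were separate sets, so time and set cannot be told apart. Over all LPS-treated libraries, 48 h against 4 h gave a call for 0 of 27 members, against 1.23% of all genes. Slc2a1 came nearest, at -0.64 ± 0.19 (adjusted p = 0.0920), 1 member had an unadjusted p under 0.05, and DESeq2 called 0. With the library kept apart counted as LPS 48 h, 14 members were called in place of 19, and without control replicate 3 or 4 Pkm lost its call.

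**Figure D3:**
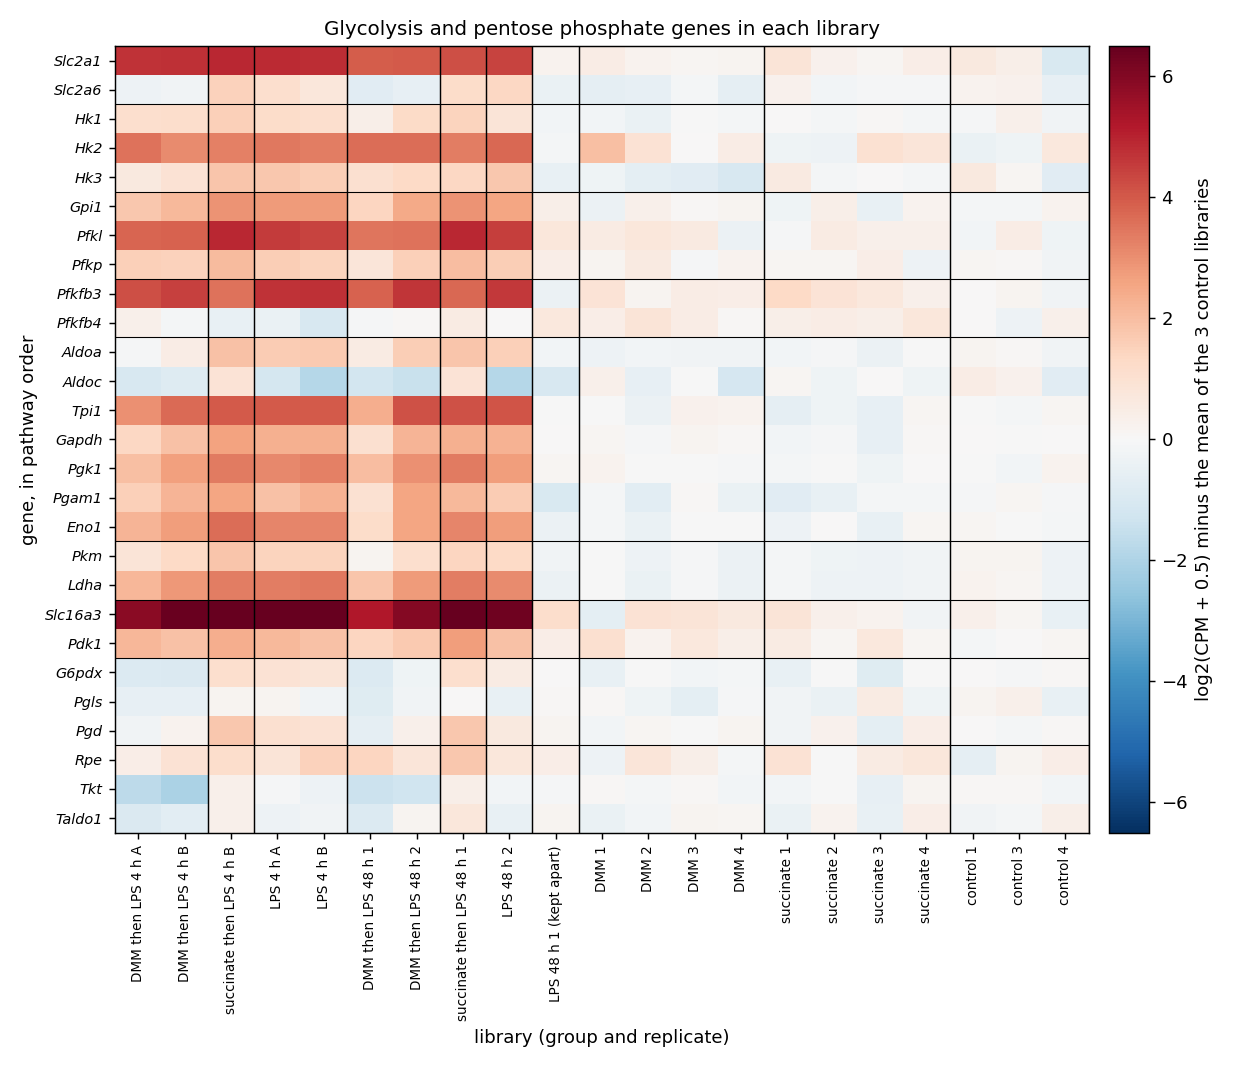
Level of each tested member (rows, in pathway order) in each library (columns, by group), as log2(CPM + 0.5) minus the mean of the 3 control libraries; red is above control and blue below. Slc2a1, Hk2, Pfkl, Pfkfb3, Tpi1 and Slc16a3 form dark red rows across the LPS-treated libraries, with Tpi1 paler in DMM then LPS 48 h replicate 1, the library labelled LPS 48 h replicate 1 has the colours of the unstimulated ones, and Tkt is bluest in the 4 DMM then LPS libraries.

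DMM before LPS was set against LPS alone to ask what blocking succinate dehydrogenase changes. At 4 h 4 of 27 members were lower, G6pdx, Tkt, Aldoa and Slc2a6, and 0 were higher. That is 14.8%, against 10.5% of all genes lower and 3.54% higher, so the count of lower members is near the background. The median was -0.55 over the members and 0.04 over all genes, and 24 of 27 log2 fold changes were negative. That lean depended on the scaling: with library totals alone, 16 of 27 were negative, the members' median was -0.11 and that of all genes was 0.50. The composition factors of the DMM then LPS 4 h libraries, 1.17 and 0.893, were above those of LPS 4 h, 0.786 and 0.726, and their part in the lean cannot be told apart from the treatment. The summed level of the 7 neutrophil genes was 200 to 320.3 CPM after DMM and LPS 4 h and 42.7 to 68.8 CPM after LPS 4 h, with S100a8 alone above 0 in the DMM then LPS libraries. Its part in the result was not tested.

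G6pdx had 80.9 and 79.9 CPM after DMM and LPS 4 h, against 295 and 269 CPM after LPS 4 h (-1.81 ± 0.32, adjusted p = 1.86e-04). Both values were also below every unstimulated library, which held 88.2 to 159 CPM. Tkt, whose product moves 2-carbon units in the non-oxidative arm, had 189 and 151 CPM after DMM and LPS 4 h, against 586 and 497 CPM after LPS 4 h (-1.67 ± 0.33, adjusted p = 7.29e-04). It too was below all unstimulated libraries, at 427 to 700.0 CPM. Both genes kept their call in all 4 runs that left out 1 library. Aldoa had 1866 and 2723 CPM after DMM and LPS 4 h, against 6213 and 6247 CPM after LPS 4 h (-1.44 ± 0.38, adjusted p = 0.00940), so that replicate A lay within the unstimulated range of 1474 to 2185 CPM. Slc2a6 had 96.1 and 102 CPM after DMM and LPS 4 h, against 254 and 200.1 CPM after LPS 4 h (-1.20 ± 0.31, adjusted p = 0.00765), inside the unstimulated range of 79.1 to 148 CPM. Aldoa and Slc2a6 each lost their call in 3 of the 4 runs: Aldoa was called without DMM then LPS 4 h replicate B and Slc2a6 without LPS 4 h replicate B, and neither without DMM then LPS 4 h replicate A (adjusted p = 0.163 and 0.103) or without LPS 4 h replicate A (0.0523 and 0.0976).

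The 6 members furthest above control after LPS 4 h did not pass this test. Slc2a1 had 128 and 132 CPM after DMM and LPS 4 h, against 145 and 137 CPM after LPS 4 h (-0.12, 95% interval -0.63 to 0.40). Hk2 had 39.3 and 27.9 CPM, against 36.3 and 33.4 CPM after LPS 4 h (-0.03, interval -0.73 to 0.67). For Slc16a3 the values were 767 and 1131 CPM after DMM and LPS 4 h and 1223 and 1164 CPM after LPS 4 h (-0.33, interval -1.09 to 0.42). Only Hk2 overlapped between the groups among these 3. Pfkl had 214 and 225 CPM after DMM and LPS 4 h, against 357 and 327 CPM after LPS 4 h (-0.64, interval -1.25 to -0.03, adjusted p = 0.151). Tpi1 had 1667 and 2786 CPM, against 3356 and 3354 CPM after LPS 4 h (-0.59, interval -1.45 to 0.27), and Pfkfb3 had 285 and 340 CPM, against 410 and 422 CPM after LPS 4 h (-0.41, interval -1.04 to 0.21). In these 3 genes both DMM then LPS libraries lay below both LPS libraries. Ldha had 3951 and 6356 CPM after DMM and LPS 4 h, against 9170.2 and 9590.0 CPM after LPS 4 h (-0.86 ± 0.39, adjusted p = 0.131), and Pgd had 420.4 and 581 CPM, against 1006 and 957 CPM after LPS 4 h (-0.97 ± 0.37, adjusted p = 0.0728). The groups did not overlap in either gene, and neither passed the test. Pfkfb4 had 20.2 and 14.9 CPM after DMM and LPS 4 h, against 11.7 and 7.53 CPM after LPS 4 h, the highest log2 fold change among the members (0.88 ± 0.40, adjusted p = 0.136).

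Without LPS, DMM gave no call among the members. Against control 0 of 27 passed the test, with 0.558% of all genes called in either direction, 3 members at an unadjusted p under 0.05 (Hk3, Pdk1 and Slc2a6) and 0 called by DESeq2. Log2 fold changes ran from -0.76 for Hk3 to 0.86 for Hk2. Without control replicate 4, Hk3 was called (-1.04, adjusted p = 0.0444). G6pdx had 109, 133, 139 and 151 CPM after DMM alone and 143, 153 and 159 CPM in control libraries. Tkt had 546, 562, 651 and 656 CPM after DMM alone and 558, 658 and 659 CPM in control libraries. Both overlapped. The difference of the DMM effect, with LPS 4 h minus without LPS, was -1.62 ± 0.39 for G6pdx (adjusted p = 0.0107) and -1.62 ± 0.41 for Tkt (adjusted p = 0.0142). These were 2 of 27 members lower, 7.41%, against 4.49% of all genes, and 0 members were higher. The call rests on single libraries: without DMM then LPS 4 h replicate A or B, or without LPS 4 h replicate A, both genes lost it (adjusted p = 0.0549 to 0.0917).

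At 48 h only Slc2a6 was called, 1 of 27 members lower (3.7%), against 0.661% of all genes. It had 72.9 and 83.6 CPM after DMM and LPS 48 h, against 301 CPM in the LPS 48 h library (-1.94 ± 0.36, adjusted p = 0.00314). Tkt had 236 and 257 CPM after DMM and LPS 48 h, against 558 CPM after LPS 48 h (-1.18 ± 0.38, adjusted p = 0.147), and G6pdx had 81.0 and 125 CPM, against 218 CPM after LPS 48 h (-1.09 ± 0.37, adjusted p = 0.174). Both libraries of DMM then LPS lay below the LPS library in these genes, without passing the test. That order is easily met by chance with 2 libraries against 1. The DMM effect at 48 h minus that at 4 h was called for 0 members and for 0.0% of all genes, with 0 members and 357 genes at an unadjusted p under 0.05 and 1 gene called by DESeq2. The highest value was that of Aldoa (1.06, 95% interval -0.16 to 2.29), and here too time and set cannot be told apart. The 2 DMM then LPS 48 h libraries differed from each other: replicate 1 was below replicate 2 in 25 of 27 members, with a median log2 ratio of -0.75 and -0.06 over all tested genes. Tpi1 had 1103 and 3783 CPM in them, and their composition factors were 1.26 and 0.717. Without replicate 2 the count of lower members was 4 (Eno1, G6pdx, Slc2a6 and Tpi1). Over the 27 members 22 log2 fold changes were negative, with a median of -0.43. Under library totals 18 were negative, with a median of -0.23 and of 0.25 over all genes, and with a replicate block 16 were, with a median of -0.07. With the library kept apart counted as LPS 48 h, 19 were positive, with a median of 0.17, and no call was made.

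**Figure D4:**
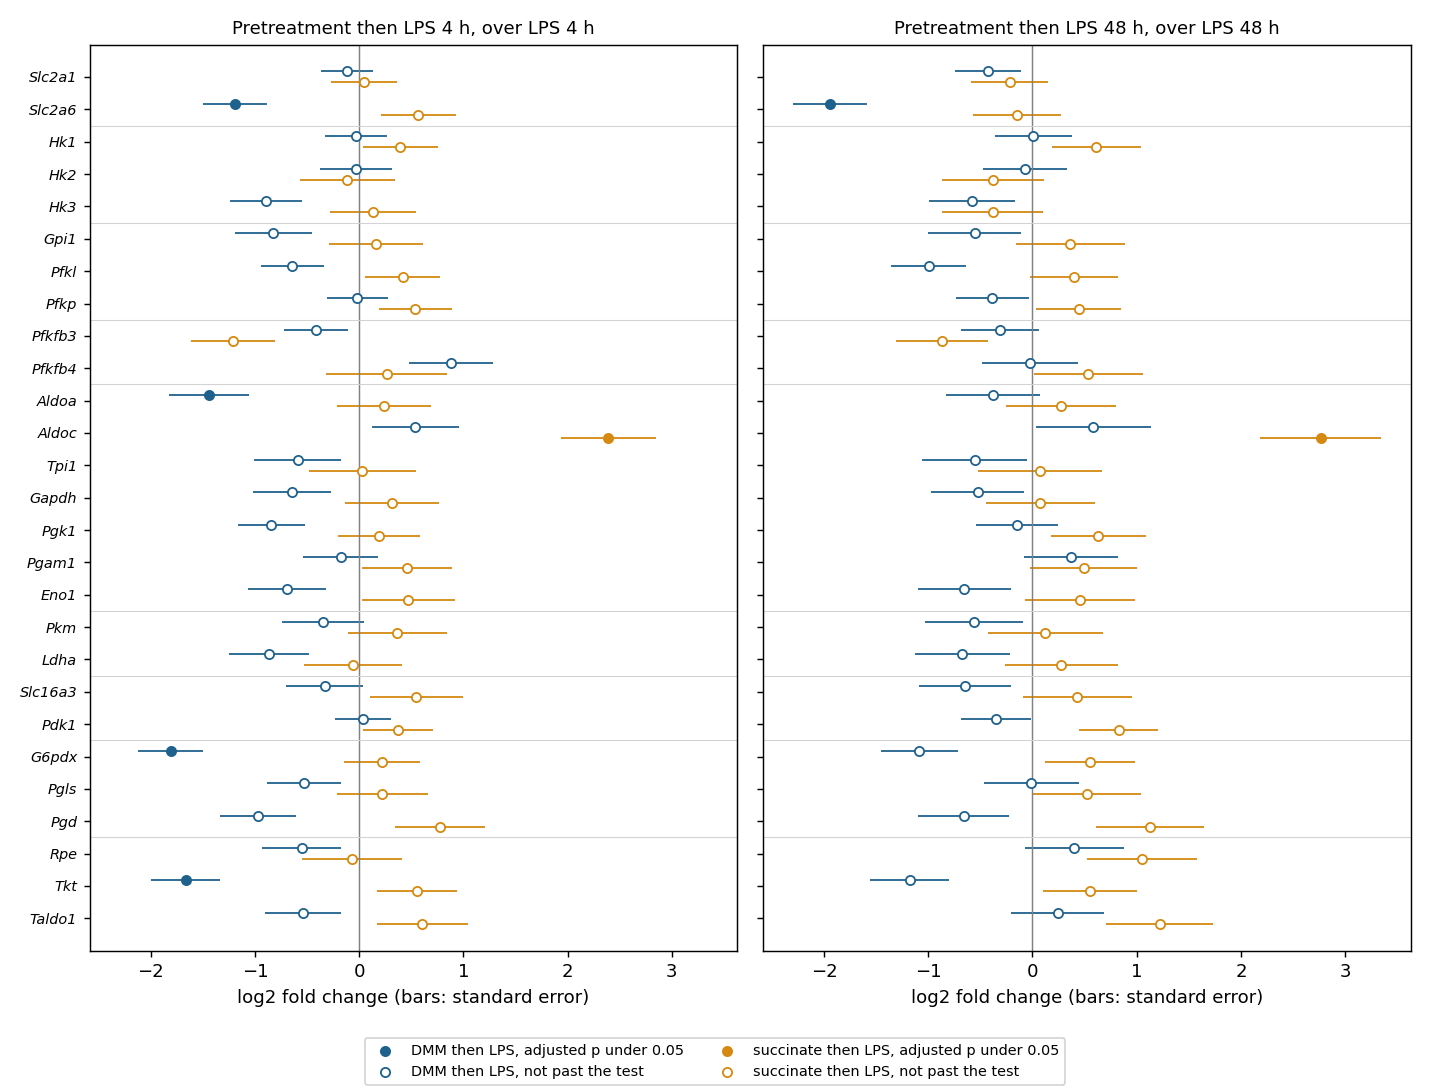
Log2 fold change of the 27 tested members in DMM then LPS (blue) and succinate then LPS (orange) over LPS alone, at 4 h (left) and 48 h (right); bars are standard errors and filled points passed the test. Most blue points lie left of 0 and most orange points right of it, and the filled ones are G6pdx, Tkt, Aldoa and Slc2a6 (blue) and Aldoc (orange) at 4 h, and Slc2a6 and Aldoc at 48 h.

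Succinate before LPS was set against LPS alone to ask whether added succinate alters the response. Aldoc was the 1 of 27 members higher (3.7%), against 0.528% of all genes at 4 h and 0.338% at 48 h, and 0 members were lower. It had 135 CPM after succinate and LPS 4 h, against 32.0 and 19.4 CPM after LPS 4 h (2.39 ± 0.46, adjusted p = 0.00443), and 132 CPM after succinate and LPS 48 h, against 19.3 CPM after LPS 48 h (2.76 ± 0.58, adjusted p = 0.0177). Both values were above every unstimulated library, at 33.0 to 102 CPM. Each succinate then LPS group was 1 library, and at 48 h it stood against 1 library, so that the standard error and p there come wholly from the spread within other groups. The 7 neutrophil genes summed to 565 CPM after succinate and LPS 4 h, against 42.7 to 68.8 CPM after LPS 4 h. At 48 h the sums were 80.7 and 7.72 CPM, in that order. S100a8 made up 560 CPM of the first sum and was the only gene of the 7 above 0 after succinate and LPS 48 h. Ly6g and Ltf had 0 counts. The part of these genes in the result was not tested. At 4 h, without LPS 4 h replicate B the call of Aldoc was lost (2.08). The other members had small positive values for the most part, with a median of 0.32 at 4 h and 0.44 at 48 h, against -0.04 and 0.01 over all genes. Pgd had 1677 and 1662 CPM after succinate and LPS at 4 and 48 h, against 1006 and 957 CPM after LPS 4 h and 760 CPM after LPS 48 h, with adjusted p = 0.719 and 0.690. Pfkfb3 was lowest of all members at both times, at -1.22 ± 0.40 and -0.87 ± 0.44 (adjusted p = 0.237 and 0.780). It had 179 and 210.2 CPM after succinate and LPS at 4 and 48 h, against 410 and 422 CPM after LPS 4 h and 384 CPM after LPS 48 h.

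Succinate alone gave no call among the members. Against control 0 of 27 were called and 0.0% of all genes, with 1 member (Pfkfb3) and 363 genes at an unadjusted p under 0.05 and 0 genes called by DESeq2. Pfkfb3 had 19.6, 25.0, 28.4 and 37.6 CPM after succinate and 13.1, 15.3 and 17.6 CPM in control libraries, which did not overlap (0.83 ± 0.32, adjusted p = 0.853).

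DMM and succinate, a source of an inhibitor of the enzyme and its substrate, were compared with each other under LPS at the same times; the doses are not given, so they may differ. At 4 h 6 of 27 members were lower after DMM (22.2%), against 6.5% of all genes, and at 48 h 7 of 27 (25.9%), against 3.1%. At neither time was a member higher. Under library totals, with a median of 0.51 over all genes, 5 members were lower at 4 h and Pfkfb3 was higher, while Aldoc was not called. Of all 6812 genes, 277 were lower and 143 higher under that scaling. G6pdx, Tkt, Pgd, Slc2a6 and Aldoc were called at both times. Tkt had 189 and 151 CPM after DMM and LPS 4 h, against 794 CPM after succinate and LPS 4 h (-2.22 ± 0.38, adjusted p = 2.53e-04), and 236 and 257 CPM after DMM and LPS 48 h, against 816 CPM after succinate and LPS 48 h (-1.73 ± 0.38, adjusted p = 0.00542). G6pdx differed by -2.03 ± 0.36 at 4 h, with 328 CPM after succinate and LPS, and by -1.63 ± 0.36 at 48 h, with 319 CPM there. Pgd, whose DMM values were 331 and 629 CPM at 48 h, differed by -1.75 ± 0.43 and -1.79 ± 0.43. These 3 are pentose phosphate genes, so that 3 of 6 of that branch were lower at each time, and in the glycolysis and lactate branch 3 of 21 were lower at 4 h and 4 of 21 at 48 h.

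Slc2a6 had 336 CPM after succinate and LPS 4 h and 272 CPM after succinate and LPS 48 h, and was lower after DMM by -1.76 ± 0.36 and -1.80 ± 0.36. For Aldoc the differences were -1.85 ± 0.44 and -2.18 ± 0.44, with 34.3 and 40.9 CPM after DMM and LPS 4 h and 31.6 and 26.3 CPM after DMM and LPS 48 h, so the succinate libraries were the high ones. Aldoa was called at 4 h alone, with 7353 CPM after succinate (-1.68 ± 0.44, adjusted p = 0.0140). Pfkl and Pdk1 were called at 48 h alone. Pfkl had 173 and 180.4 CPM after DMM and LPS 48 h, against 465 CPM after succinate and LPS 48 h (-1.40 ± 0.35, adjusted p = 0.0193), and Pdk1 had 42.9 and 52.6 CPM, against 108 CPM (-1.18 ± 0.32, adjusted p = 0.0325). Whether a call at 1 time differs from the other time was not tested. The pairs did not differ by test in Slc2a1 (-0.17 at 4 h, interval -0.80 to 0.47; -0.21 at 48 h, interval -0.87 to 0.45) or in Hk2 (0.09, interval -0.83 to 1.00; 0.31, interval -0.58 to 1.19). These counts rest on few libraries: without DMM then LPS 4 h replicate A, 3 of the 6 calls were left at 4 h (G6pdx, Slc2a6 and Tkt), and at 48 h 3 were left without replicate 1 (Aldoc, Slc2a6 and Tkt) and 17 were called without replicate 2. Slc2a6 and Tkt were called in each of these runs, whichever DMM then LPS library was left out. Without LPS, DMM against succinate gave 0 calls among the members, against 0.22% of all genes, with 1 member (Hk3) at an unadjusted p under 0.05 and 0 called by DESeq2, and the 95% intervals of the 27 differences lay between -1.31 and 1.35.

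**Figure D5:**
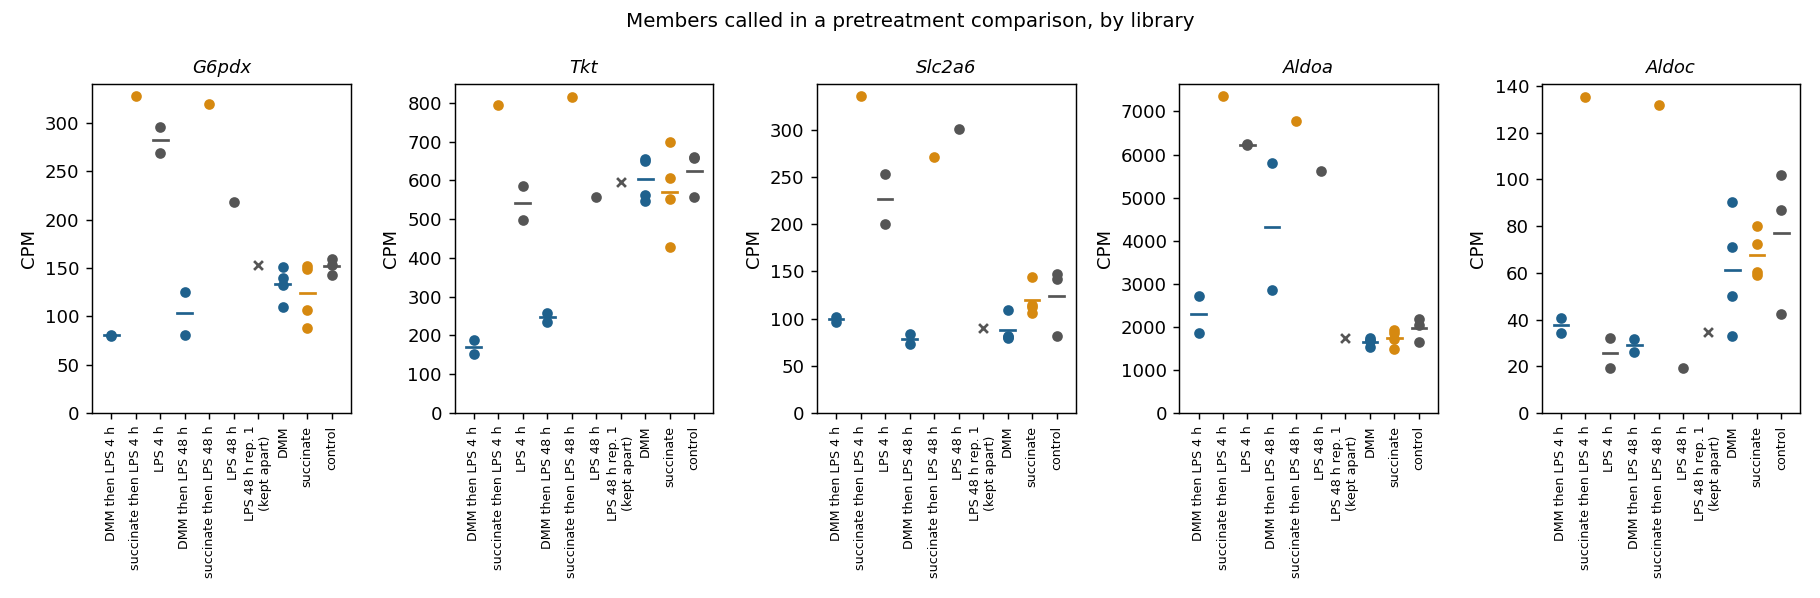
CPM of G6pdx, Tkt, Slc2a6, Aldoa and Aldoc in each library (points) by group; horizontal lines are group means, blue marks DMM, orange succinate, grey LPS alone or control, and the cross the library labelled LPS 48 h replicate 1. G6pdx and Tkt lie at or under 125 and 257 CPM in the 4 DMM then LPS libraries and at or above 218 and 497 CPM in the other LPS-treated libraries apart from the cross, and Aldoc is highest in both succinate then LPS libraries.

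Around the listed members, 82 other genes of glucose handling (glycogen, gluconeogenesis, pyruvate use, shuttles and their regulators) were read the same way. Of these, 79 were in the table and 44 were tested. In LPS 4 h against control 9 of the 44 were higher and 9 lower, against 15.4% of all genes higher and 12.5% lower, with a median of -0.21. By p the first 6 were Pgm2, Gyg, H6pd, Mdh1, Pygl and Gpd2. Pgm2, of the phosphoglucomutase family, had 106 to 111 CPM after LPS 4 h and 3.03 to 12.2 CPM in control libraries (3.77 ± 0.34). H6pd, which starts the oxidative pentose phosphate route inside the endoplasmic reticulum, had 105 to 109 CPM after LPS 4 h and 5.10 to 19.9 CPM in control libraries (3.09 ± 0.33). Pygl, a glycogen phosphorylase, rose by 3.47 ± 0.41 and Gpd2, of the glycerol phosphate shuttle, by 2.91 ± 0.41. On the other side, Gyg, which primes glycogen, had 18.1 to 22.6 CPM after LPS 4 h and 270.4 to 286 CPM in control libraries (-3.76 ± 0.35), and the malate dehydrogenase gene Mdh1 fell by 2.42 on the log2 scale. At 48 h 8 of the 44 were higher and 7 lower, against 12.5% of all genes higher and 8.29% lower. Those 6 genes were again called in the same direction.

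DMM then LPS 4 h against LPS 4 h called 4 of these 44 genes higher (Adpgk, G6pc3, Got1 and Pdpr) and 1 lower, against 3.54% of all genes higher and 10.5% lower. Gpd2, the lower one, had 11.8 to 20.4 CPM after DMM and LPS 4 h and 38.7 to 42.7 CPM after LPS 4 h (-1.38 ± 0.37, adjusted p = 0.00918). Got1, an aminotransferase of the malate-aspartate shuttle, had 24.7 to 33.4 CPM after DMM and LPS 4 h and 7.47 to 11.8 CPM after LPS 4 h (1.56 ± 0.43, adjusted p = 0.0115). The matching comparison at 48 h, and succinate with or without LPS, gave no call among them. Against succinate then LPS, DMM then LPS was lower in Pygl at both times (-1.73 ± 0.46 and -1.85 ± 0.46) and in H6pd at 4 h (-1.51 ± 0.35). These were 2 of 44 genes at 4 h, against 6.5% of all genes, and 1 of 44 at 48 h, against 3.1%. Slc37a2, a sugar phosphate carrier, was the gene lower in DMM alone, with 73.9 to 122 CPM, against 193 to 239 CPM in control libraries (-1.12 ± 0.24, adjusted p = 0.0229). That is 1 of 44, against 0.558% of all genes called in either direction. The effect of DMM differed with LPS 4 h from that without LPS for Got1 (2.14 ± 0.52), Slc37a2 (1.99 ± 0.40) and Pygl (-2.27 ± 0.56), with adjusted p = 0.0115, 0.00263 and 0.0141. These were 2 of 44 higher and 1 lower, against 64 of 6812 genes higher and 306 lower. Between the LPS-treated libraries of 48 h and 4 h, H6pd differed by -0.94 ± 0.22 (adjusted p = 0.0233), where time and set cannot be told apart. It was 1 of 44, against 1.23% of all genes.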

How the data were processed

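The table deposited by the authors holds whole-number read counts for each gene symbol in all 21 libraries. Per the labels' protocols, full-length cDNA libraries were made by a SmartSeq2 variant. No molecular identifiers are named. The Wilson intervals of count shares cover counting error only. The intervals of log2 fold changes come from the fitted model and include the spread between libraries. The submitters' processing notes name TopHat2, Bowtie, HTSeq and edgeR. Settings, genome build and annotation: not given in the sources used here.

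Stimulated columns were matched to samples, and unstimulated ones to treatments, by name, and an unstimulated library carries its column's number. Nothing in the labels says whether replicates were separate cultures, so p-values may reflect technical spread only. Genes were kept (6812 of 34573) when at least 2 libraries reached the CPM that 10 reads make at the median library size and the total was at least 15. Scaling was by TMM, and CPM uses the scaled library sizes. edgeR 4.0.16 (R 4.3.3) fitted its quasi-likelihood model to 20 libraries in 9 groups (11 residual degrees of freedom, biological coefficient of variation 0.23), so that a group with a single library borrows its spread from the rest. P-values were Benjamini-Hochberg adjusted over all genes tested, with a threshold of 0.05, and values after ± are standard errors. Comparisons with LPS alone, with control or with succinate then LPS share those libraries. Per-length levels used GENCODE M21 union exon lengths.

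The members, lists and tests were chosen with earlier results of these data known. Values are given by library for the member furthest from control at each step after LPS 4 h, and for each member called in a comparison of a pretreatment or of its effects; other members were named after their values were seen. Of the other pathway genes, called ones are named, up to the 6 with the smallest p. Alternatives were DESeq2 1.42.0, other scalings, no filter, all 21 libraries, only the compared kind of libraries, each library left out in turn, and a replicate block. A split of the unstimulated libraries by odd and even column number was added after seeing the data.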

Additional observations from a re-analysis of the deposited data

Results flagged for a closer look

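In 54 groups of a member and an unstimulated treatment with 4 libraries, 2 held a library far from the others, and chance flags about 1 in 20 groups. Pgls, the lactonase gene of the oxidative arm, had 54.2 CPM in succinate replicate 3 and at most 31.7 CPM in the other succinate libraries. Slc2a6 had 109 CPM in DMM replicate 3 and at most 82.0 CPM in the other DMM libraries. Leaving out either library changed no member's call.

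The test of the difference in edgeR called the effect of DMM different between cells with and without LPS 4 h for G6pdx (-1.62 on the log2 scale, adjusted p = 0.0107) and Tkt (-1.62, adjusted p = 0.0142). Without DMM then LPS 4 h replicate A or B, or without LPS 4 h replicate A, both calls were lost (adjusted p = 0.0549 to 0.0917), and with all 21 libraries 0 members were called.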

How the results depend on the processing

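Of the 23 members called for LPS 4 h against control in the full fit, most kept their call whichever library was left out. At 48 h LPS alone was 1 library, so only control libraries could be left out. Those runs could not show how far the 48 h calls rest on that library. With all 21 libraries 14 members were called at 48 h. No log2 fold change of a called member changed sign under any alternative run. DMM then LPS 4 h against LPS 4 h called 4 members, 2 with all 21 libraries, 7 with DESeq2, and 2 to 3 with a library left out; at 48 h it called 1, then 0, 4 and 1 to 4. Succinate then LPS called 1 at each time, 0 with all 21 libraries, and 0 to 1 with a library left out at 4 h. DMM then LPS against succinate then LPS called 6 at 4 h (3 to 6 with a library left out) and 7 at 48 h, with 3 from all 21 libraries, 4 from the LPS-treated libraries alone and 3 to 17 with a library left out. DMM against control called 0 (0 to 1). The difference of DMM effects called 2, with 0 from all 21 libraries, 1 under library totals and 0 to 2 with a library left out. The number called over all genes moved with the setting too. For DMM then LPS 4 h against LPS 4 h, 715 of 6812 genes were lower in the full fit. With all 21 libraries 363 of 6894 were lower, and with DESeq2 712 of 3546. For DMM then LPS 48 h against succinate then LPS 48 h, 211 of 6812 genes were lower in the full fit and 518 with a replicate block. The cause of these changes in count was not tested.

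The pairing could be checked in LPS 4 h and DMM then LPS 4 h alone, where same-lettered libraries did not deviate together (correlation 0.00), so no pairing was assumed; at 48 h it could not be checked. With a replicate block 9 members were called for LPS 48 h against control, 7 for DMM then LPS 4 h, 0 for succinate then LPS 48 h and 17 for DMM then LPS 48 h against succinate then LPS 48 h. Counting differences between unstimulated libraries (chi-square per degree of freedom) were 3.44 to 17.3 within odd or even column numbers and 10.2 to 29.7 across them; with those split, LPS called 22 and 18 members, and without LPS DMM and succinate called 0 within each split. Of 64 calls of single members, 18 were lost with all 21 libraries, 12 with the block, 11 under library totals, 1 with DESeq2, 1 without the filter, 0 with median-of-ratios factors, 6 of 20 with the compared kind alone and 2 of 44 with the split. The filter on low counts left 6 members untested.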
